A study of Mus musculus with 2 samples.

Results

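C1q positive macrophages were a small set of cells in mouse bone marrow, profiled in 1 library from control mice (Ctrl) and 1 from Map4k4-cKO mice (cKO). They were chosen by their reads: among barcodes that passed 200 to 9000 genes and no more than 30% UMIs of mitochondrial genes (unique molecular identifiers, each tagging 1 captured RNA molecule), a barcode was a member when C1qa, C1qb and C1qc together had at least 3 UMIs. The rule took 109 of 9965 kept Ctrl barcodes and 36 of 6718 kept cKO barcodes, 145 of 16683 in all. These barcodes carried macrophage genes and genes of the macrophages that serve erythroblasts, with few UMIs each, and a minority held most of the MHC class II RNA.

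C1q is the recognition unit of the classical complement pathway, a hexamer built from A, B and C chains that are encoded by neighbouring genes. Tissue macrophages make it, whereas most plasma complement comes from the liver, and C1q bound to dying cells helps phagocytes to take them up. In the marrow, resident macrophages sit at the centre of erythroblastic islands, hold developing red cells through Vcam1, engulf the expelled nuclei and recycle haem iron, and they also clear aged neutrophils.

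Each library came from mice aged 13 to 14 weeks and mixed 2 parts of c-Kit+ cells, enriched with magnetic beads, with 3 parts of marrow treated to lyse red cells, so the shares of cells are those of the mixture and not of the marrow. The cKO mice carried floxed Map4k4 alleles (f/f) and Mx1-Cre, an interferon-inducible Cre that was switched on with poly I:C and that acts in haematopoietic cells but is not limited to them. The label of the other library says only control, the methods write its genotype as Mx1-Cre Map4k4-/-, and elsewhere the study calls its cells wildtype. Whether the controls were given poly I:C is not given in the sources used here, and nor is the number of mice per library. With 1 library per group no difference between Ctrl and cKO has a replicate check, no p-value is given, and the intervals of shares and ratios cover counting error only. Intervals of medians cover the spread among the barcodes of 1 library.

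Map4k4 (ENSMUSG00000026074, chr1:39900913-40026310, + strand, GRCm38), the gene targeted in the cKO mice, had 19 UMIs in 15 of the 109 C1q positive barcodes of Ctrl and 6 UMIs in 5 of the 36 of cKO. These are 81.4 and 88.1 counts per 1000000 UMIs (CPM), with cKO over Ctrl at 0.11 on the log2 scale (95% interval -1.50 to 1.50). Reads were summed over the whole gene, which hides whether the floxed exons were read, so the values check neither label, and Ctrl and cKO stand below for the libraries labelled so.

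The 3 chains lie side by side on the minus strand of chromosome 4 in GRCm38 (GENCODE vM21). C1qb (ENSMUSG00000036905) is at chr4:136880129-136886187, C1qc (ENSMUSG00000036896) at chr4:136889804-136893065 and C1qa (ENSMUSG00000036887) at chr4:136895917-136898803. Because the members share these genes and a set of other macrophage genes, the 250 bases before the start of C1qb and of Cd5l, a scavenger protein of macrophages, are shown as RefSeq gives them for GRCm38.p6, with C1qb at chr4:136886201-136886450 (minus strand) and Cd5l at chr3:87357631-87357880 (plus strand). Capitals mark 2 motifs searched on both strands, TGCTGA, which reads TCAGCA on the other strand, a part of the palindrome bound by MAF family factors, and GAGGAA, which reads TTCCTC on the other strand, a core bound by PU.1.
C1qb: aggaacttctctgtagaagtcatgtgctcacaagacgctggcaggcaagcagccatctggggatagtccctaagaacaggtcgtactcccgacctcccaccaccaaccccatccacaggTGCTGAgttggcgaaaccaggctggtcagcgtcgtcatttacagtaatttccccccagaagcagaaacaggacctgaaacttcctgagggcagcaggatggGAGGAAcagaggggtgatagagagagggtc
Cd5l: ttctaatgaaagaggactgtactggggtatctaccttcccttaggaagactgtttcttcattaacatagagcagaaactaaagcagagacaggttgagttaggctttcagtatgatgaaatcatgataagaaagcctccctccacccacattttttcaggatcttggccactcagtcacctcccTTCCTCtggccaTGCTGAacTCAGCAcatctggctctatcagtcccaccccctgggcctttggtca
The C1qb window held 1 match to each motif, and the Cd5l window held 1 PU.1 core and 2 MAF motifs that face each other. Of the 15 genes with the highest ratio over the other barcodes, described below, 12 had a promoter in the table, and 5 of these held the MAF motif and 7 the PU.1 core. Among all 32851 promoters of that length, 16.1% held the first and 23.3% the second. These shares count promoters, whereas the 5 and 7 count genes. The 12 genes were picked as highest in these same data and include C1qb and C1qc, which the rule used, so the counts test nothing. Matches of this kind are descriptions of the letters and not of binding.

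The libraries share 3010 barcode names, 2 of them C1q positive in both. Without shared names, 91 Ctrl and 28 cKO members remained, 1.30% and 0.748% of the kept barcodes, and the neutrophil, island and MHC class II values below are also given without them.

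By the rule, C1q positive barcodes made up 1.09% of the kept Ctrl barcodes (exact Clopper-Pearson 95% interval 0.899 to 1.32) and 0.536% of the kept cKO barcodes (0.376 to 0.741). The log2 ratio of the shares was -1.03 (-1.62 to -0.47). It was -0.39 among barcodes with at least 10 C1q UMIs, of which Ctrl had 31 and cKO 16. The members were chosen on these UMIs, so the share is a description. Just outside the threshold were 26 Ctrl and 5 cKO barcodes with 2 C1q UMIs, and just inside it 20 Ctrl and 6 cKO barcodes with 3. Medians were 911 and 659 UMIs in Ctrl and 635 and 664 in cKO, though the class outside also held deep barcodes, with an upper quartile of 19821 UMIs in cKO. At least 1 UMI of a macrophage marker other than C1q was seen in 21 of the 26 Ctrl barcodes with 2 C1q UMIs and 19 of the 20 with 3, and in cKO in 4 of 5 and 5 of 6. As shares of summed UMIs, which deep barcodes weigh on, these markers took 0.0815% of the UMIs of Ctrl barcodes with 2 C1q UMIs and 0.525% of those with 3, and in cKO 0.0386% and 0.580%. Barcodes with 1 C1q UMI, 342 in Ctrl and 44 in cKO, were deep, with medians of 6561.5 and 9892 UMIs, and macrophage markers took only 0.0215% and 0.00756% of their UMIs.

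The C1q positive barcodes were shallow. Their median was 1098 UMIs in Ctrl (95% interval 884 to 1481) and 1003.5 in cKO (663 to 1395), against 4149 and 6320 UMIs in the other kept barcodes. Deposited barcodes with these filters start at 500 UMIs, and the lowest members had 502 UMIs in Ctrl and 515 in cKO, so the members reach down to the lowest depth present. In Ctrl 49 of 109 members, and in cKO 18 of 36, had fewer than 1000 UMIs. They had a median of 660 genes in Ctrl and 540 genes in cKO. Thinned to 1000 UMIs, the 60 Ctrl and 18 cKO members deep enough had medians of 611 and 584 genes, next to 632 and 582 in B cells and 660 and 624 in monocytes. The mitochondrial share was higher than elsewhere, with medians of 3.09% and 3.18% against 1.42% and 1.02% in the other kept barcodes. All C1q positive barcodes together held 233395 UMIs in Ctrl and 68084 in cKO, 0.327% and 0.106% of the UMIs of the kept barcodes, which sets the precision of every value below.

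**Figure D1:**
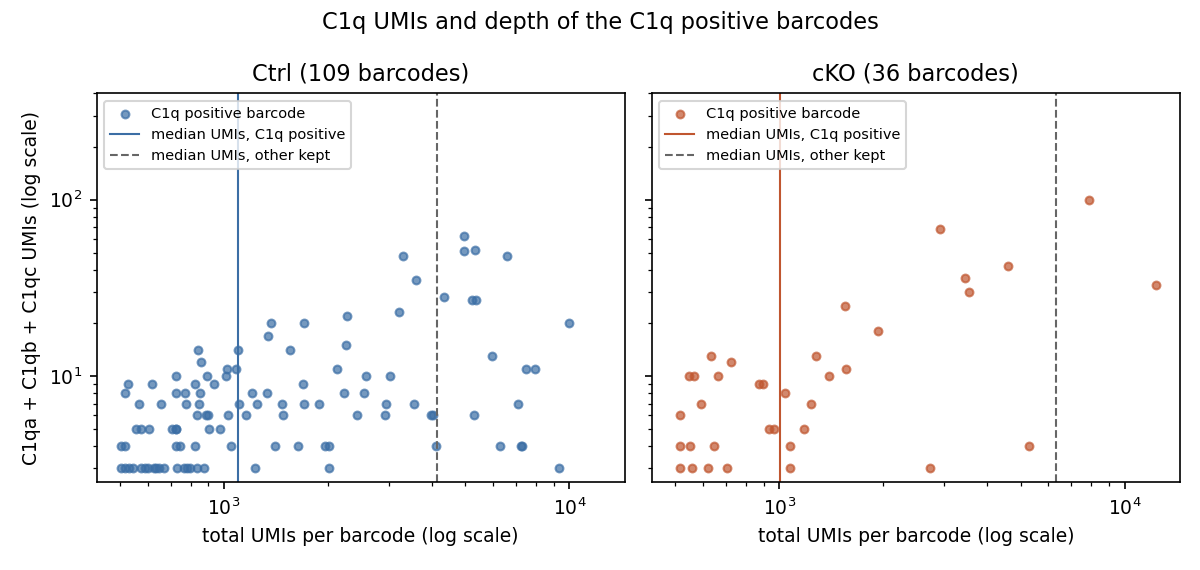
Each point is 1 C1q positive barcode of the Ctrl (left) or cKO (right) library, by its total UMIs and its summed C1qa, C1qb and C1qc UMIs, both on log scales. Solid lines mark the median depth of the C1q positive barcodes (1098 and 1003.5 UMIs) and dashed lines that of the other kept barcodes (4149 and 6320 UMIs), so most members lie left of the dashed line.

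The A chain had the most summed UMIs of the 3. In Ctrl C1qa had 494 UMIs, C1qb 290 and C1qc 318, and in cKO they had 203, 177 and 160. By barcode it led in Ctrl only, where C1qa was seen in 100 members, C1qb in 86 and C1qc in 93. In cKO they were seen in 31, 33 and 30. All 3 chains were seen in 68 of 109 Ctrl and 25 of 36 cKO members, and a single chain in 7 and 3. Per barcode the chains summed to a median of 7 UMIs in Ctrl (3 to 62) and 8.5 in cKO (3 to 100), and 1 cKO barcode held 18.5% of the C1q UMIs of all cKO members. The members held 73.7% of all C1q UMIs of the kept Ctrl barcodes and 90.9% of those of cKO, and the remainder was spread as 1 or 2 UMIs over other barcodes.

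Macrophage markers that the rule did not use went with C1q. All 14 genes of the macrophage list, and 9 of 13 genes of the erythroblastic island list, reached 20 UMIs over the members of both libraries together, and each of these 23 had at least 2-fold more CPM than the other kept barcodes in both libraries. Over the 2409 genes with at least 20 UMIs, 412 or 17.1% did so, and since genes pass the count minimum more easily where they are high, the counts describe these lists and test nothing. The macrophage list took 0.947% of the members' UMIs in Ctrl and 1.53% in cKO, against 0.0198% and 0.0163% in the other kept barcodes. It was also far above its level in monocytes, here barcodes with Ccr2 and Fn1 UMIs and no C1q, where it took 0.0792% and 0.111%.

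Apoe, which carries lipids out of macrophages, was the most abundant of these markers, with 769 UMIs or 3295 CPM in Ctrl and 545 UMIs or 8005 CPM in cKO. It was seen in 82.6% of Ctrl and 86.1% of cKO members, and in 19.4% and 16.3% of B cells. These are barcodes with at least 3 UMIs of Cd79a and Cd79b and no C1q. B cells should lack Apoe and are deeper, with medians of 3132 and 25020 UMIs, though the cKO set was mixed, as given below. At 1000 UMIs per barcode the shares were 75.0% and 83.3% of members and 7.14% and 1.96% of B cells. Sdc3, a heparan sulfate proteoglycan, had 891 CPM in Ctrl and 1160 in cKO. Mrc1, the mannose receptor, had 865 and 676 CPM, and Lgmn, a lysosomal endopeptidase, 767 and 1087 CPM. Mrc1 was seen in 67.0% and 55.6% of the members and in 1.15% and 4.81% of B cells. Axl, one of the receptors through which phagocytes recognise dying cells, had 638 and 749 CPM, and its relative Mertk 171 and 103 CPM. The transcription factor Maf had 139 UMIs in Ctrl and 43 in cKO, or 596 and 632 CPM. Csf1r, the receptor for the macrophage growth factor, did not set the members apart from monocytes, with 274 and 294 CPM against 210 and 250.

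The island list took 0.744% of the members' UMIs in Ctrl and 0.820% in cKO, and 0.0164% and 0.0171% in monocytes. Hmox1, the enzyme that opens the haem ring, had 500 UMIs (2142 CPM) in Ctrl and 156 (2291 CPM) in cKO. Vcam1, the adhesion molecule that holds erythroblasts, had 439 (1881 CPM) and 133 (1953 CPM). Slc40a1, the iron exporter ferroportin, had 306 (1311 CPM) and 113 (1660 CPM). Vcam1 was seen in 78.9% of Ctrl and 72.2% of cKO members, against 5.74% and 15.4% of B cells, and after thinning in 70.0% and 77.8% against 1.32% and 0.980%. Fcna, a lectin that can start complement, had 810 and 1102 CPM, and Cd5l 416 and 353 CPM. Spic, the factor that drives the iron recycling programme of red pulp macrophages, had 58 UMIs in Ctrl and 10 in cKO, or 249 and 147 CPM. Cd163, the haemoglobin scavenger receptor, had 39 and 7 UMIs, or 167 and 103 CPM, against 1.20 and 0.218 CPM in the other kept barcodes. Further named markers of these macrophages had few UMIs, with 9 and 3 for Siglec1, 3 and 4 for Timd4, and 2 and 4 for Epor.

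At least 3 UMIs of the macrophage list were found in 102 of 109 Ctrl members (93.6%, 87.2 to 97.4) and 34 of 36 cKO members (94.4%, 81.3 to 99.3). For the island list the numbers were 96 of 109 (88.1%, 80.5 to 93.5) and 31 of 36 (86.1%, 70.5 to 95.3). B cells, though deeper, reached 3 macrophage UMIs in 10.1% and 31.7% and 3 island UMIs in 9.44% and 47.1%. Monocytes, also deeper than the members, reached 3 macrophage UMIs in 80.2% and 89.0% and 3 island UMIs in 21.8% and 45.3%. Most members thus carried the macrophage markers that their label calls for, though a count of 3 does not set them apart from monocytes, and most but not all carried the island genes.

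**Figure D2:**
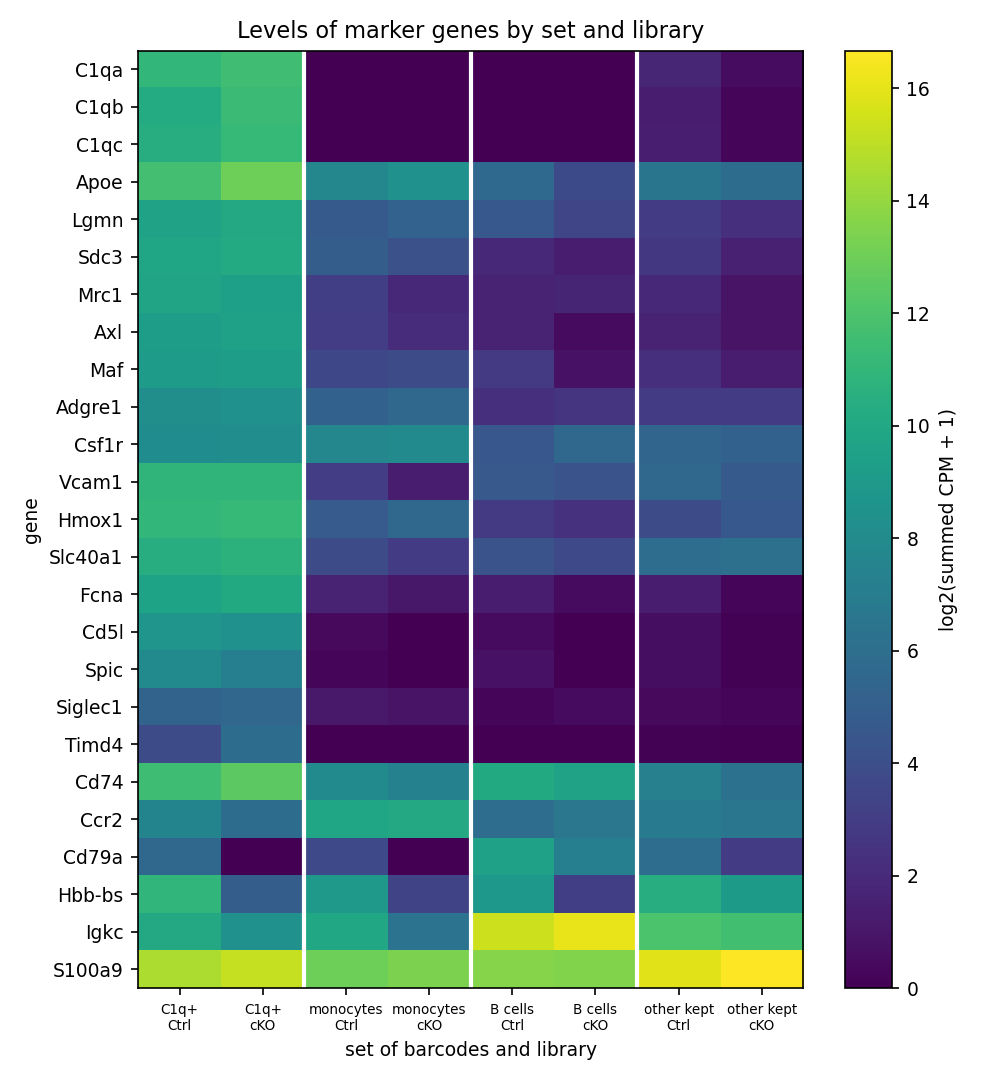
Colour gives log2(summed CPM + 1) of each gene (rows) in C1q positive barcodes, monocytes, B cells and all other kept barcodes, side by side for Ctrl and cKO. Macrophage and island genes are brightest in the C1q positive columns, as with Vcam1 at 1881 and 1953 CPM, while S100a9 is bright in every column.

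The 15 genes with the highest ratio of C1q positive over other kept barcodes, taking the lower of the 2 libraries, were the 3 chains and Col14a1, Cd5l, Mertk, Kcna2, Fcna, Ccr3, Spic, Igf1, Kcnj10, Itgad, Mrc1 and Ms4a7. Several are not usual macrophage names. Col14a1, a collagen of fibrils, had 23 UMIs in 16 Ctrl barcodes and 7 in 6 cKO barcodes, and no UMI in B cells of either library. Kcna2 and Kcnj10, a voltage-gated and an inward rectifier potassium channel, had 36 and 45 UMIs in Ctrl and 4 and 11 in cKO, and Kcna2 was at 0 in B cells and monocytes. Ccr3, a receptor for eotaxins best known from eosinophils, had 48 UMIs in 29 Ctrl barcodes and 8 in 7 cKO barcodes, while the list of basophil, mast cell and eosinophil genes summed to 18 UMIs in Ctrl and 0 in cKO. Igf1, a growth factor made by tissue macrophages, had 326 and 264 CPM, against 0.670 and 0 in monocytes. Itgad, the integrin alpha D chain found on splenic red pulp macrophages, had 249 and 308 CPM.

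The working genes of such macrophages were also abundant. Haem and iron handling genes took 1.85% of the members' UMIs in Ctrl and 2.18% in cKO, against 0.290% and 0.329% in the other kept barcodes. Most of that was ferritin, whose heavy chain Fth1 had 7228 and 8607 CPM and light chain Ftl1 6491 and 7594 CPM. Of the 15 genes on the list, 12 had at least 20 UMIs and 8 of them at least 2-fold more CPM than the other kept barcodes in both libraries. Lysosomal genes took 1.92% and 2.31%, against 0.279% and 0.278%, led by Psap, the precursor of the saposins, at 5626 and 5816 CPM and by the protease Ctsb at 3256 and 3980 CPM. Of 21 lysosomal genes, 20 reached the count minimum and 18 of these the 2-fold ratio in both libraries. Of all 2409 genes with that minimum, 412 or 17.1% did so, and the counts of both lists are descriptions only. Lipid handling genes took 0.599% and 1.09%, against 0.0514% and 0.0474%. Besides Apoe these include Lpl, which releases fatty acids from lipoproteins, with 480 and 441 CPM, and Abca1, which loads cholesterol onto lipoproteins, with 146 and 279 CPM. The uptake list of receptors and bridging proteins for dying cells took 0.185% and 0.228%, against 0.0293% and 0.0285%. Monocytes were nearer to the members on these lists. There haem and iron handling genes took 0.377% of UMIs in Ctrl and 0.518% in cKO, and lysosomal genes 0.691% and 0.806%. Lipid handling genes took 0.141% and 0.178%, and uptake genes 0.0491% and 0.0535%. Within complement, the sums beyond C1q differed little from those of the other kept barcodes, but single genes did differ. Other components and regulators took 0.0733% and 0.0837%, against 0.0556% and 0.0625% in the other kept barcodes, of which Cfp, which stabilises the alternative pathway convertase, had 441 and 426 CPM, against 72.3 and 107 in the other kept barcodes. Complement receptors took 0.129% and 0.112%, against 0.146% and 0.152%. Their sum was led by Calr, a chaperone that also binds C1q, at 514 and 367 CPM against 770 and 610, while Itgax, the alpha chain of complement receptor 4, had 85.7 and 73.4 CPM against 3.49 and 1.78, though all 5 of its cKO UMIs lay in 1 barcode.

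Markers of several other cell types had few UMIs, but not all had a smaller share than in the other kept barcodes. The T and NK list summed to 15 UMIs in Ctrl and 1 in cKO, or 0.00643% and 0.00147% against 0.0333% and 0.0423% there. The B cell list, with Cd79a at 11 and 0 UMIs, summed to 77 and 8, or 0.0330% and 0.0118% against 0.0355% and 0.00313%. The dendritic cell list summed to 15 and 3 UMIs, or 0.00643% and 0.00441% against 0.00531% and 0.00148%, and the stroma and endothelium list to 14 and 3, or 0.00600% and 0.00441% against 0.00320% and 0.00139%. These 2 lists were thus above the other kept barcodes in both libraries, on few UMIs. Of the osteoclast list, 36 and 17 UMIs, all but 3 and 2 were Acp5, a phosphatase that macrophages also make, and the list's share of 0.0154% and 0.0250% was above the 0.00134% and 0.000661% of the other kept barcodes. The stem and progenitor list summed to 99 and 2 UMIs, or 0.0424% and 0.00294% against 0.0593% and 0.0251%. The megakaryocyte and platelet list summed to 35 and 13, or 0.0150% and 0.0191% against 0.0202% and 0.00468%, above the other kept barcodes in cKO but not in Ctrl. Cell cycle genes took 0.274% and 0.238%, against 0.572% and 0.433% in the other kept barcodes, and 0.246% and 0.127% without the neutrophil- and globin-rich barcodes described below, which moved the log2 ratio of cKO over Ctrl from -0.20 to -0.95. The monocyte list, which includes Ccr2, took 0.238% of the members' UMIs in Ctrl and 0.286% in cKO, against 0.784% and 0.912% in monocytes, which were chosen on Ccr2. Without the neutrophil- and globin-rich barcodes it took 0.151% and 0.158%, and its log2 ratio of cKO over Ctrl moved from 0.27 to 0.06.

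Neutrophil RNA was found in every C1q positive barcode. The 21 genes of the neutrophil lists took 6.44% of the members' UMIs in Ctrl (6.34 to 6.54) and 11.2% in cKO (10.9 to 11.4). The other kept barcodes were at 16.3% and 27.2%. The median barcode was at 4.86% in Ctrl (95% interval 4.15 to 5.66) and at 6.19% in cKO (4.40 to 8.58), and without shared barcode names at 4.98% and 7.49%. The summed share was set by few barcodes. In Ctrl 6 barcodes with between 27.4% and 34.7% neutrophil UMIs held 8036 of the 15034 neutrophil UMIs, and in cKO 1 barcode with 39.5% held 4868 of 7610. The next highest shares were 12.7% in Ctrl and 17.7% in cKO. That cKO barcode was the deepest member, with 12311 UMIs, 33 of them C1q, but only 4 from the macrophage list, 3 from the island list and none from Apoe. Without these barcodes and 1 rich in globin, 102 Ctrl and 35 cKO members remained, with summed neutrophil shares of 3.38% and 4.92%. When barcodes were thinned to 1000 UMIs before the rule, the summed share no longer differed in the same direction, at -0.12 for cKO over Ctrl on the log2 scale against 0.80 without thinning.

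In shallow members the number of neutrophil UMIs was close to that in B cells, which should make no such RNA. Among barcodes with fewer than 2500 UMIs, Ctrl members had a median of 46 neutrophil UMIs and Ctrl B cells 47. In cKO the medians were 62 in 28 members and 55.5 in 6 B cells. As shares of the barcode they were 5.11% in Ctrl members against 3.01% in B cells and monocytes alike, and 7.28% in cKO members against 3.96% in B cells and 20.7% in 22 monocytes. Its make-up was also alike in Ctrl, and less closely so in cKO. In these Ctrl members 66.4% of the neutrophil UMIs were S100a8 and S100a9, 23.8% secondary granule, 5.86% primary granule and 3.94% late genes. The same parts in shallow Ctrl B cells were 64.5%, 25.0%, 6.74% and 3.76%. In cKO they were 73.0%, 18.4%, 4.05% and 4.57% in the 28 members and 67.3%, 21.9%, 5.25% and 5.56% in the 6 B cells. The B cell sets of the libraries were not alike. A Cd79a UMI was found in 91.8% of Ctrl and 43.3% of cKO B cells, and at least 3 T and NK UMIs in 6.89% and 47.1%. The median barcode held 3 and 41 UMIs of the monocyte list, while plasma cell genes took 7.70% and 11.3% of the UMIs. Primary granule genes made up 20.4% and 47.9% of the neutrophil UMIs in all B cells. The source of the neutrophil RNA was not tested, and no caller of doublets was run.

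**Figure D3:**
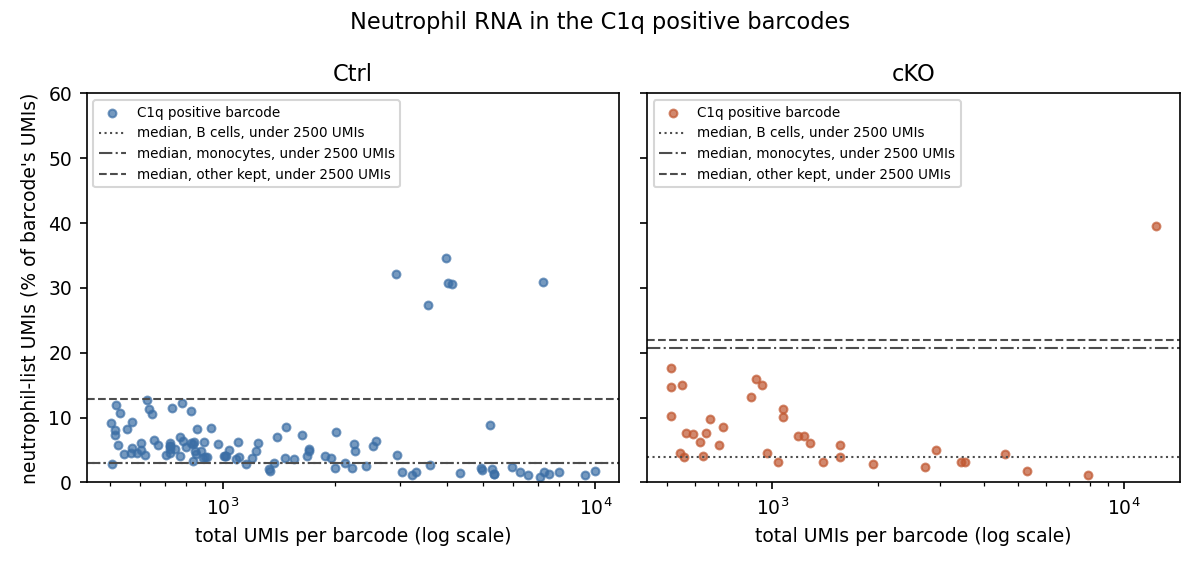
Each point is 1 C1q positive barcode, by total UMIs (log scale) and the percentage of its UMIs that came from the 21 neutrophil genes. Horizontal lines are medians of barcodes under 2500 UMIs in B cells, monocytes and other kept barcodes; the 6 Ctrl points above 27% and the cKO point at 39.5% stand apart from the rest.

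Erythroid RNA was lower in cKO, and in Ctrl most of it lay in 1 barcode. The 4 globin genes took 0.456% of the members' UMIs in Ctrl (1065 UMIs) and 0.0191% in cKO (13 UMIs). One Ctrl barcode of 2127 UMIs held 860 globin UMIs, and without it and the neutrophil-rich barcodes Ctrl stood at 0.0959% (197 UMIs) and cKO at 0.0233%. Globin UMIs were seen in 83 of 109 Ctrl and 7 of 36 cKO members. In B cells they were seen in 85.3% and 43.3%, with summed shares of 0.113% and 0.00250%, so the same order held in cells with no C1q. Erythroid genes other than globins were scarce, at 76 UMIs in Ctrl and 7 in cKO, or 0.0326% and 0.0103%, against 0.107% and 0.0430% in the other kept barcodes.

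Antibody RNA was also lower in cKO, and was spread over many barcodes. Igha, the heavy chain of IgA, had 192 UMIs in 78 of 109 Ctrl members with at most 9 in any of them, and 2 UMIs in 2 cKO members. Its log2 ratio of cKO over Ctrl was -4.81 (-7.86 to -2.94), next to -1.99 in the other kept barcodes. In monocytes Igha was seen in 90.4% of Ctrl and 21.7% of cKO barcodes. Igkc, the kappa light chain, had 248 UMIs in Ctrl and 24 in cKO. Jchain, which joins IgA units, had 29 UMIs in 22 Ctrl barcodes and 0 in cKO. With cKO set to a floor of 3 UMIs Jchain was 2.82-fold lower there. The upper bound of its 95% interval, which also counts the error of Ctrl, was -1.10 on the log2 scale.

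MHC class II genes, which present peptides to helper T cells, divided the members. The list took 0.722% of UMIs in Ctrl (1684 UMIs) and 1.40% in cKO (952 UMIs). Of the Ctrl UMIs 1568 lay in 15 barcodes with at least 10 each, and of the cKO UMIs 891 lay in 6 such barcodes. A single Ctrl barcode had 526, and 2 cKO barcodes had 466 and 355. Without shared barcode names the list took 0.524% in Ctrl and 1.86% in cKO. Meanwhile 42 Ctrl and 13 cKO members had none. By gene, Cd74, the invariant chain, was at 664 and 383 UMIs, H2-Aa at 415 and 180, H2-Eb1 at 293 and 169 and H2-Ab1 at 252 and 198. In B cells Cd74 had 1101 and 770 CPM, below its 2845 and 5625 CPM in the members. The 94 and 30 members with fewer than 10 MHC class II UMIs were below B cells, at 292 and 547 CPM. A Cd74 UMI was found in fewer members than B cells in Ctrl, 40.4% against 62.1%, but not in cKO, 50% against 45.2%.

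The summed island list was lower in the barcodes rich in MHC class II. There the island list took 0.307% of UMIs in Ctrl (0.261 to 0.358) and 0.185% in cKO (0.131 to 0.254). The rest of the members were at 0.870% and 1.09%, and those with no MHC class II UMI at 0.911% and 0.613%. Of the island UMIs in the barcodes rich in MHC class II, 84 of 160 in Ctrl and 18 of 38 in cKO lay in 1 barcode. Hmox1 was seen in 4 of the 15 Ctrl and 2 of the 6 cKO barcodes, and in 75 of the other 94 Ctrl and 17 of the other 30 cKO members. Spic was seen in 4 of the 15 and 1 of the 6, and in 28 of the other 94 and 5 of the other 30. Its 10 UMIs in the Ctrl and 1 in the cKO barcodes rich in MHC class II were 0.0192% and 0.00488% of UMIs, against 0.0265% and 0.0189% in the rest, from 48 and 9 UMIs. Of the 15 Ctrl barcodes, 2 were also neutrophil-rich, with 1 island UMI each. Without all neutrophil- and globin-rich barcodes, the island list took 0.358% in 13 Ctrl and 0.185% in 6 cKO barcodes rich in MHC class II, against 0.940% and 1.47% in the rest. The division was not complete. At least 3 island UMIs were found in 8 of the 15 Ctrl and 4 of the 6 cKO barcodes. The macrophage list took 1.32% and 1.36% there, against 0.838% and 1.60% in the rest. Of the 42 Ccr2 UMIs of Ctrl members, 35 lay in 4 of these barcodes, 26 of them in 1, while Flt3 had 3 UMIs there, all in 1 barcode, and the dendritic cell list 4. The MHC class II rich barcodes were deeper, with medians of 3295 and 2824 UMIs against 952 and 916.5, and 10 is a count and not a share. Depth's part in the split was not tested.

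**Figure D4:**
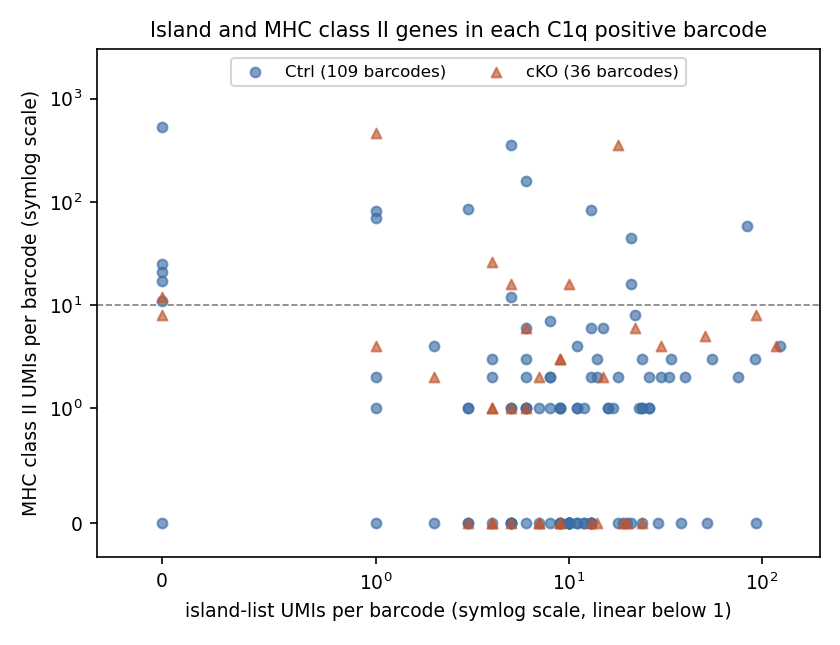
Each point is 1 C1q positive barcode, by its UMIs from the 13 island genes and from the 7 MHC class II genes, on axes that are linear below 1 and logarithmic above. The dashed line marks 10 MHC class II UMIs; 15 Ctrl and 6 cKO barcodes lie on or above it, several of them with 0 or 1 island UMIs.

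Between the libraries, 101 of 2409 genes with at least 20 UMIs had at least 2-fold more CPM in cKO members (4.19%) and 333 had at least 2-fold less (13.8%), with a median log2 ratio of -0.10. The smaller number of cKO UMIs widens the ratios, and 13 of these genes were at 0 in cKO and none at 0 in Ctrl. Without the rich barcodes the numbers were 99 and 279 of 2106 genes, with a median of -0.05. The counts depend on the setting, in part because fewer genes reach 20 UMIs in fewer barcodes. After thinning, 12 of 397 genes were higher (3.02%) and 30 lower (7.56%). With the mean of per-barcode proportions 183 of 2409 were higher (7.60%). The genes lower were 217 of 1778 (12.2%) with at least 5 C1q UMIs, 114 of 1108 (10.3%) with at least 10 and 177 of 1630 (10.9%) with all 3 chains.

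Most genes of the macrophage programme differed by less than 2-fold between the libraries, as did most genes of any kind. Of all 2409 genes, 4.19% were at least 2-fold higher in cKO and 13.8% at least 2-fold lower. Over the macrophage list the log2 ratio of cKO over Ctrl was 0.69 (0.58 to 0.80), and Apoe was its only gene beyond 2-fold, at 1.28 (1.12 to 1.44). The median gene of the list was at 0.23. Apoe was not set by 1 barcode, since the ratio was 1.34 without the barcode richest in it in each library. In the other kept barcodes it was -0.55, but monocytes went the same way as the members, with 210 CPM in Ctrl and 339 in cKO. Members with at least 10 MHC class II UMIs had similar Apoe shares, 0.648% of UMIs in Ctrl and 0.683% in cKO. The rest of the members were at 0.238% and 0.851%. The island list was at 0.14 (-0.00 to 0.28), with none of its 9 genes of at least 20 UMIs beyond 2-fold. Without shared barcode names its direction turned, with 0.804% of UMIs in Ctrl and 0.477% in cKO, as it did at a threshold of 2 C1q UMIs (-0.36) and after thinning (-0.11). Vcam1 was at 0.05 (-0.24 to 0.34), Hmox1 at 0.10 (-0.17 to 0.36), Maf at 0.08 (-0.44 to 0.59) and Mrc1 at -0.36 (-0.85 to 0.11), all with intervals that include 0. Over the macrophage list the interval lay above 0 for 3 of 14 genes (Apoe, Lgmn and Aif1) and over the island list for 2 of 9 (Fcna and Slc40a1), below 0 for none, and it included 0 for the other 11 and 7. Over all 2409 genes it lay above 0 for 138, or 5.73%, and below 0 for 146, or 6.06%. Haem and iron handling was at 0.23 (0.15 to 0.32) and the lysosome at 0.27 (0.18 to 0.35), where Npc1, which exports cholesterol from lysosomes, with 25 UMIs in Ctrl and 3 in cKO, was the only gene beyond 2-fold.

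MHC class II was at 0.95 (0.84 to 1.07) in the members and at -1.05 in the other kept barcodes. Of its 6 genes with at least 20 UMIs, only H2-Ab1 was beyond 2-fold, at 1.43 (1.15 to 1.70). Without the barcode richest in it in each library, H2-Ab1 was at 0.94, below 2-fold. The direction of the list rests on few barcodes, since 466 and 355 of the 952 cKO UMIs lay in 1 each. With at least 5 C1q UMIs required the list was at -0.12, while after thinning it was at 0.21. The Fc receptor list was at 0.74 (0.49 to 0.99), close to 0.77 in the other kept barcodes, with Fcer1g, the shared signalling chain, at 1238 CPM in Ctrl and 2115 in cKO. Macrophage transcription factors took 0.259% of UMIs in both libraries, and interferon-stimulated genes 0.171% and 0.178%, a log2 ratio of 0.06 (-0.25 to 0.36). Mx1 and Mx2 were not among the listed genes. Cytokines and chemokines took 0.131% and 0.200% and were at 0.61 (0.31 to 0.90), with Ccl4, Ccl8 and Il18bp beyond 2-fold higher and Ccl9 beyond 2-fold lower, though Ccl9 turned to 2.36 after thinning.

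Several of the genes that differed most came mainly from single barcodes. Ranked by the interval bound nearest 0, the 8 highest included such genes. Lyz1 (20 UMIs), a lysozyme, and Saa3 (19 UMIs), an acute phase protein, were found in the same single cKO barcode, which also held 100 C1q and 355 MHC class II UMIs, and each had 1 UMI in Ctrl. Ccl4, a chemokine for T cells and monocytes, had 3 UMIs in Ctrl and 22 in 5 cKO members, 16 of them in 1 barcode, and its log2 ratio of 4.65 was 3.36 without the barcode richest in it in each library. The secondary granule genes Camp (985 of 1186 UMIs) and Ngp (624 of 805) came mainly from the neutrophil-rich cKO barcode, and without the richest barcode of each library both turned, from 1.38 to -0.78 and from 1.37 to -0.50. That leaves 5 of the 6 neutrophil-rich Ctrl barcodes in, and without all neutrophil- and globin-rich barcodes Camp was at 0.36 (0.12 to 0.60) and Ngp at 0.24 (-0.01 to 0.48). Tspo, a mitochondrial membrane protein, had 26 UMIs in Ctrl and 30 in cKO, 11 of them in that same barcode, and its log2 ratio of 1.98 was 1.44 without the richest barcodes, 1.61 (0.65 to 2.55) without the neutrophil- and globin-rich barcodes and 1.14 in the other kept barcodes. Ccl8, a monocyte chemokine, had 7 UMIs in 3 Ctrl members, 5 of them in 1 barcode, and 15 in 7 cKO members, 6 of them in 1. Its log2 ratio was 2.88 (1.50 to 4.41), and 3.95 without the richest barcodes. The other kept barcodes had 0.0281 CPM of Ccl8 in Ctrl and 0 in cKO. H2-Ab1 completed the list, with 106 of its 198 cKO UMIs in 1 barcode. Its log2 ratio of 1.43 was 0.94 without the richest barcodes and 1.69 (1.41 to 1.97) without the neutrophil- and globin-rich barcodes.

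Among the 8 lowest, Hbb-bs, Hba-a1, Hba-a2 and Hbb-bt lay mainly in the globin-rich Ctrl barcode, which held 420 of 476, 200 of 247, 194 of 274 and 46 of 68 of their UMIs. Their log2 ratios stayed below 0 without the barcode richest in each, at -4.03, -2.78, -2.96 and -2.68. Without the neutrophil- and globin-rich barcodes they were at -2.87 (-5.96 to -0.95), -1.64 (-3.58 to -0.19), -2.06 (-3.73 to -0.78) and -1.44 (-4.58 to 0.60). Lyz1 and these globins each have a near-identical relative, so the split of reads between the copies is uncertain. Cstdc4, a cystatin-like gene of neutrophils, had 44 of its 49 Ctrl UMIs in 1 neutrophil-rich barcode. Igha and Jchain are described above. Sox4, a factor of progenitors and early B cells, had 30 UMIs in 11 Ctrl members, at most 8 in 1, and 0 in cKO. With cKO set to a floor of 3 UMIs it was 2.92-fold lower there. Counting the error of Ctrl as well, the upper bound of the 95% interval was -1.16 on the log2 scale. In the other kept barcodes its ratio was -1.83.

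**Figure D5:**
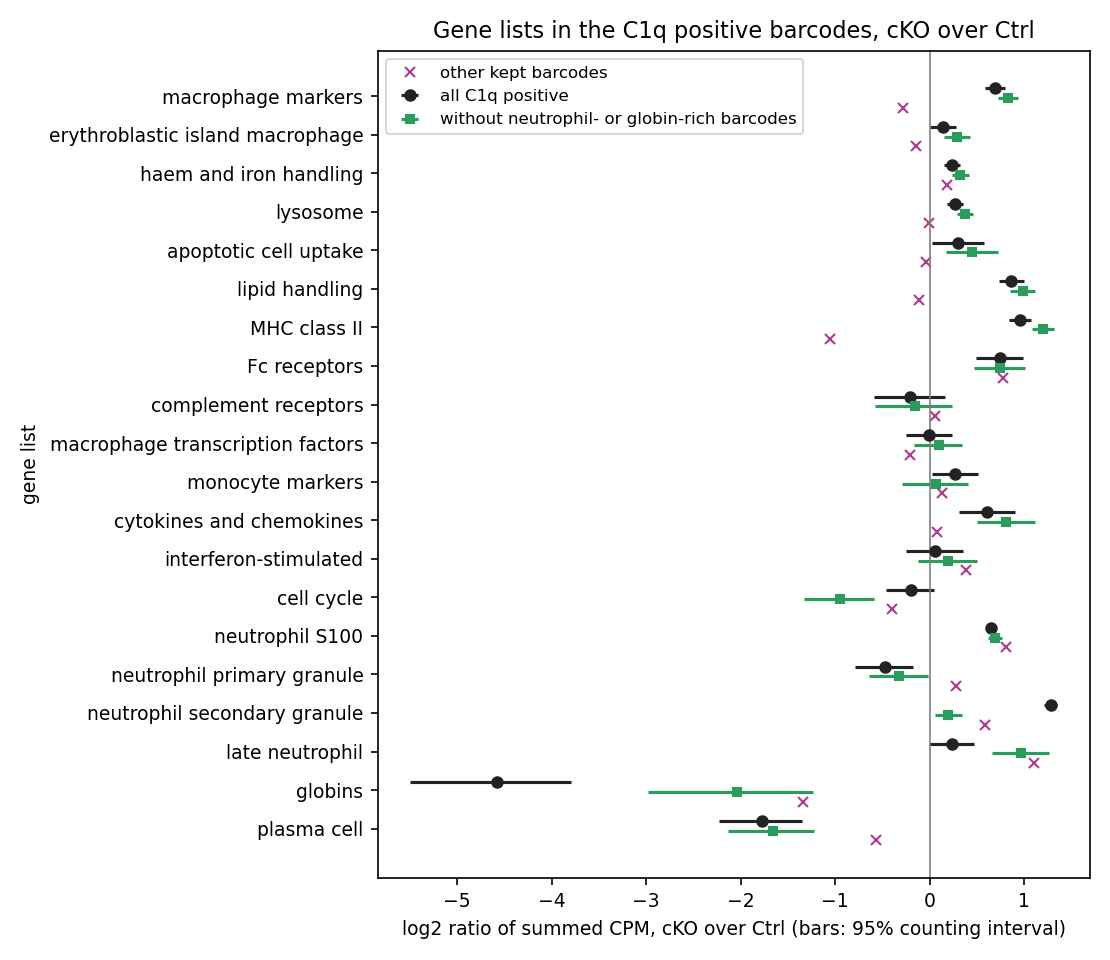
Log2 ratio of cKO over Ctrl of the summed CPM of 20 gene lists (rows) in all C1q positive barcodes (circles), in those left without neutrophil- or globin-rich barcodes (squares), both with 95% counting intervals, and in the other kept barcodes (crosses). Secondary granule and globin genes shift most between circles and squares, from 1.28 to 0.20 and from -4.58 to -2.04, while the macrophage list stays between 0.69 and 0.83.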

How the data were processed

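The authors deposited raw UMI counts per gene and barcode from 3′ droplet sequencing on the DG1000 platform, made with Cell Ranger 5.0.0 on GRCm38 (mm10), for barcodes already called as cells. The files hold 10220 Ctrl barcodes with 71527701 UMIs and 6872 cKO barcodes with 64393950 UMIs over 32285 genes, and 0 per-sample columns were left unused. From these counts, barcodes were filtered and chosen as the report states. No barcode was removed as a doublet and no caller was run, whereas the study's methods removed doublets with DoubletFinder. UMIs were summed per library and set and scaled to CPM. Ratios carry exact conditional binomial 95% intervals, shares Clopper-Pearson intervals and medians intervals from order statistics. Since there is 1 library per group, cells were not tested as replicates. Calculations were tested on simulated data.

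The members and the 31 gene lists (303 genes, of which 3, Ahsp, Mx1 and Mx2, are not in the files' gene list) were chosen with earlier results of these data known. Named were the 3 chains and Map4k4, list genes with at least 20 UMIs or at 0 where they define a cell type, the 15 highest ratios over the other kept barcodes (at least 50 CPM in both libraries), and the 8 highest and 8 lowest ratios of cKO over Ctrl, ranked by the interval bound nearest 0. The text describes a part of these genes, and 1 was left out and is not reported here. Siglec1, Timd4, Epor, Maea, Flt3 and Cd79a have fewer UMIs and were chosen after their values were seen. Of the files' identifiers, 32158 are in GENCODE vM21. Alternatives were other C1q thresholds, floors on UMIs and genes, a mitochondrial ceiling of 10%, thinning, a second marker, other scalings and other count minimums. Leaving out rich barcodes, or the barcode richest in a gene, and shallow references were added after seeing the data. Python 3.11.15, numpy 2.4.6, scipy 1.17.1, pandas 2.3.3 and matplotlib 3.10.9 were used.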

Additional observations from a re-analysis of the deposited data

How the results depend on the processing

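No paired analysis was possible because each group has 1 library. Values below are log2 ratios of cKO over Ctrl unless named otherwise. Over all alternatives, 134 values of the main comparisons kept their size and 69 moved. Of the other values, most of them ratios of single genes, 2160 kept their size, 320 moved and 15 that were at least 2-fold apart turned. Among the 69 were 5 that changed sign, 3 of the island list, 1 of MHC class II and 1 of neutrophil genes, all given below, and of the ratios of lists and single genes of any size 348 changed sign.

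With at least 2 C1q UMIs, 84.4% of Ctrl members had 3 macrophage UMIs and 79.3% had 3 island UMIs, and the macrophage list was at 0.21, the island list at -0.36, MHC class II at 0.49, globins at -5.73, neutrophil genes at 0.59 and the T and NK list at 0.67. With at least 5, the Ctrl macrophage share was 98.7% and the cKO island share 96%, MHC class II was at -0.12, neutrophil genes at 1.21 and Fcgr4 at -0.060, and 217 genes were lower. With at least 10, the ratio of shares was -0.39, median depth 2575 and 1555 UMIs, the Ctrl neutrophil median 3.06%, detection of macrophage UMIs 100% in both and of island UMIs 96.8% and 100%, the macrophage list 0.46, MHC class II 0.12, neutrophil genes 2.31 and Fcgr4 -0.96, with 114 genes lower. With all 3 chains, cKO detection was 100% and 96%, MHC class II 0.70 and neutrophil genes 0.87, with 177 genes lower.

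With at least 1000 UMIs per barcode, median depth was 2347 and 1743.5 UMIs, the neutrophil median 3.73% and 4.20%, Ctrl macrophage detection 98.3% and neutrophil genes 0.84. At most 10% mitochondrial UMIs put neutrophil genes at 0.85. With at least 500 genes, median depth was 2009 and 1555 UMIs, the Ctrl neutrophil median 4.02% and Ctrl macrophage detection 98.6%. Thinning to 1000 UMIs before the rule, which left 41 and 16 members, put the Ctrl neutrophil median at 3.7%, Ctrl detection at 82.9% and 75.6%, the macrophage list at 0.52, island -0.11, MHC class II 0.21, secondary granule -0.45, globins -5.83, B cell 0.14, T and NK 0.36 and neutrophil genes -0.12. It left 12 genes higher and 30 lower, and 57 named genes at least 2-fold apart, and Kcna2 turned to 0.77, Camp to -0.87, Ngp to -0.019, Ccl9 to 2.36, Lcn2 to -0.40 and Myb to 1.36.

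Neutrophil genes were at 0.70 with median-of-ratios size factors and at 0.87 with carried and mitochondrial genes out of the denominator. With the mean of per-barcode proportions, the island list was at -0.078, MHC class II at 0.78 and neutrophil genes at 0.34, with 183 genes higher. A minimum of 50 UMIs per gene gave 23 higher and 58 lower, and a minimum of 1 UMI 1581 and 4566. Without rich barcodes the macrophage list was at 0.83, island 0.29, MHC class II 1.20, globins -2.04 and neutrophil genes 0.54. Without barcodes of at least 10 MHC class II UMIs the macrophage list was at 0.93, island 0.33 and neutrophil genes 1.25. Without the barcode richest in the gene, Camp was at -0.78, Ngp at -0.50 and Lcn2 at -0.41. For all of these the cause was not tested. Depth limits all single genes, since the cKO members hold 68084 UMIs in all.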
